A study of Mus musculus with 6 samples.

Results

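Dab2, Steap3, Acp5, Tfe3 and Lipa are 5 genes of the route by which a macrophage takes up cargo, acidifies and digests it and recovers its iron. They were measured with NimbleGen expression arrays, hybridised with 1 dye, in RAW264.7, a line of mouse cells that resemble macrophages. Every array target whose accession matched a transcript, symbol or synonym of one of these genes was kept, which gave 6 targets of 44170 in all: Dab2 (NM_001102400), Steap3 (NM_001085409), Acp5 (NM_001102404 and NM_001102405), Tfe3 (NM_001105196) and Lipa (NM_001111100). Each was matched through a RefSeq transcript and read by 3 probes. Only 2.87% of all targets matched a symbol, so further targets of these genes may be present under accessions that could not be named.

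The knockdown group was 3 arrays of RAW264.7 cells transfected with the vector pRNAi-U6H1 carrying an interfering RNA against Tim-3, an immune receptor, and kept under the drug G418 to obtain clones with stable expression. The control group was 3 arrays of the same line with a control interfering RNA in that vector. Each array came from a separate culture per the labels, and the labels do not say how many clones stand behind a group. The samples are titled TimKO and NC in the labels, although the agent was an interfering RNA and not a gene deletion. The 5 genes were picked with results of this knockdown-control comparison already known, so their differences between the groups are given as a description, without p-values, and the counts of calls among them are not read as evidence.

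In receptor-mediated uptake, adaptor proteins gather receptors into clathrin-coated pits, and the vesicles deliver them to endosomes and lysosomes. Iron that arrives on transferrin is released in the acid endosome, has to be reduced before it can cross the membrane, and macrophages also gain iron from the cells they digest. Many lysosomal enzymes are made under the control of the MiT/TFE transcription factors, which move into the nucleus when the lysosome is stressed or nutrients are scarce. RAW264.7 cells can also be driven to form osteoclasts, cells that secrete lysosomal enzymes onto bone.

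Tfe3 and its relatives bind an E-box (CACGTG, the core of the lysosomal CLEAR element) or the related M-box (CATGTG), so the promoters of the 5 genes were searched on both strands for these letters, for the M-box with a preceding T (TCATGTG) and for the longer CLEAR palindrome, which contains the E-box. RefSeq windows of 300 bases on GRCm38.p6, defined as 250 bases before and 50 after a transcript start, were at hand for all 5 genes: 2 for Dab2, 4 for Steap3, 3 for Acp5, 2 for Tfe3 and 1 for Lipa. TCATGTG was present in 2 of these 12 windows, 1 of Acp5 and 1 of Dab2, against 3.77% of all 32851 windows. CATGTG was found in the same 2 windows and in 14.2% of all windows. CACGTG and the CLEAR palindrome were in 0 of the 12, against 7.15% and 0.326% of all windows. A match is a run of letters and not a measured binding site, and no match says only that these letters are not in these windows. The stretches below show the Acp5 and Dab2 matches and, for comparison, Lipa, the lysosomal lipase of the set. Capitals mark TCATGTG or its reverse complement CACATGA, and all are written in the direction of transcription.
Acp5, chr9:22130599-22130848, minus strand, the 250 bases before the start: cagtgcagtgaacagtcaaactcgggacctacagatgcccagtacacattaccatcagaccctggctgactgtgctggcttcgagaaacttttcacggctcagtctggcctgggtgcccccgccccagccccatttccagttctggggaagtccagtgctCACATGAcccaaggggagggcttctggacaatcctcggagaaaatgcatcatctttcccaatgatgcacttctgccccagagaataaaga
Lipa, chr19:34527475-34527724, minus strand, the 250 bases before the start: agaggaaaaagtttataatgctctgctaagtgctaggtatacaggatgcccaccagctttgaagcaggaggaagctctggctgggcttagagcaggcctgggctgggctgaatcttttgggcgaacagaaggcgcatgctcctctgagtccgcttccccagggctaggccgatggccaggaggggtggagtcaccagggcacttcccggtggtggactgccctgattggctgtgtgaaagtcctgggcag
Dab2, chr15:6299809-6299838, plus strand, 30 bases around the match, which lies after the start: gctgtgcatttTCATGTGgcagagctctta
The Acp5 match begins 90 bases before the start of its window's transcript. The deposited files do not tie a target to a start site, so which of these windows was in use in the cells was not measured.

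The arrays had median intensities of 201.5 to 218.3, and their random-sequence probes averaged 23.1 to 24.5. Control replicate 3 stood apart, with Pearson's r of 0.965 to 0.972 to the other arrays across all targets, while the highest r of every other array was 0.988 or more. Hepatocyte genes were bright on all other arrays of this macrophage-like line and low on control replicate 3. The summed intensity of 4 measured genes of 26 listed (Apoc1, Hpn, Kng1 and Pklr) was 7269 to 8266 on the knockdown arrays. It was 9308 and 8329 on control replicates 1 and 2, and 180 on control replicate 3. The summed intensity of 4 measured erythroid genes of 11 listed was not low there. It was 3794 to 5972 on the knockdown arrays and 3931 to 4675 on the control arrays, with 4675 on control replicate 3. The alpha globin gene Hba-a2 made up most of it, at intensities of 3162 to 5021 over the 6 arrays. Another of the 4, Ank1, stayed under 100 on every array, at intensities of 24 to 48. No gene of a list of 10 fibroblast markers was measured under a symbol. Of 24 listed macrophage genes, Ptprc (CD45) was the one measured under a symbol, at intensities of 125 to 171 in knockdown and 146 to 195 in control cells, below the median of each array and above the random-sequence probes. Other defining macrophage genes were not analysed here, nor was the targeted gene. Differences are therefore given below with and without control replicate 3. Leaving it out keeps only arrays on which the hepatocyte genes were bright. The part of the hepatocyte and erythroid genes' RNA in the differences was not tested.

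All 6 targets were well above background. Their lowest intensity on any array was 32.1 times that of the random-sequence probes for Dab2 and 208 times for Lipa, with the others between. Each exceeded an intensity of 100 on every array, and all 6 were in the authors' filtered series table. By mean log2 intensity they lay between the 74.8th percentile of all targets (Dab2) and the 93.5th (Tfe3). Different targets carry different probes, so these percentiles do not rank the genes by amount of RNA. In bulk RNA, a lower value from fewer cells that express a gene and one from less RNA per cell cannot be told apart.

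Dab2 encodes a clathrin adaptor that binds the tails of LDL receptor family members and integrins. Its intensity was 1492, 1583 and 1888 on knockdown replicates 1 to 3 and 923, 1128 and 788 on control replicates 1 to 3. All knockdown arrays were above all control arrays. The mean log2 intensity was 10.68 ± 0.18 (SD, n = 3) in knockdown and 9.87 ± 0.26 (SD, n = 3) in control cells, a difference of 0.81 (SE 0.17 from the fit across all targets), or 1.76-fold. The gap between the lowest knockdown and the highest control array was 0.40 on the log2 scale, and the difference was larger in size than that of 94.8% of all targets. Control replicate 3 was the lowest array, and without it the difference was 0.69.

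Steap3 encodes the endosomal reductase that converts ferric to ferrous iron once transferrin has released it. Its intensity was 1475, 1271 and 1367 on knockdown replicates 1 to 3 and 2063, 2028 and 1963 on control replicates 1 to 3. Here every knockdown array was below every control array. The mean log2 intensity was 10.42 ± 0.11 (SD, n = 3) in knockdown and 10.98 ± 0.04 (SD, n = 3) in control cells, a difference of -0.56 (SE 0.11), which makes the control level 1.47 times the knockdown level. The control arrays were within 1.05-fold of each other. The spread of Steap3 within the groups, a pooled SD of 0.08, was smaller than that of all but 6.5% of targets. The median was 0.22 over all targets and 0.16 over those with 100 or more on at least 3 arrays. Control replicate 3 did not stand apart for this gene, and without it the difference was -0.58.

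Acp5 encodes tartrate-resistant acid phosphatase, an iron-containing enzyme of lysosomes and a marker of osteoclasts and of some activated macrophages. Its first target, NM_001102404, had intensities of 2712, 2968 and 3090 on knockdown replicates 1 to 3 and 4265, 3519 and 2924 on control replicates 1 to 3. The groups overlapped because control replicate 3 lay within the knockdown range, while the other controls were above it. The mean log2 intensity was 11.51 ± 0.10 (SD, n = 3) in knockdown and 11.78 ± 0.27 (SD, n = 3) in control cells, a difference of -0.27 (SE 0.17).

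The second Acp5 target, NM_001102405, read 1239, 1390 and 1195 on the knockdown arrays and 1929, 1689 and 1210 on the control arrays, in the same order of replicates. It gave the same picture at a lower signal: control replicates 1 and 2 were high and control replicate 3 was level with the knockdown arrays. The mean log2 intensity was 10.31 ± 0.11 (SD, n = 3) against 10.63 ± 0.35 (SD, n = 3), a difference of -0.31 (SE 0.20). The first target was 2.08 to 2.58 times as bright as the second on every array, and over the 6 arrays they had a Pearson's r of 0.92, as a description. Both belong to 1 gene and may share probe sequence, so they are not independent readings.

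For Acp5 the control arrays decided the size of the difference. Without control replicate 3 it was -0.41 for the first target and -0.51 for the second, and the groups no longer overlapped. Without control replicate 1, the brightest array, it was -0.14 and -0.17. Control replicate 3 differed from the mean of the other controls by -0.41 and -0.58 on the log2 scale. The median absolute gap was 0.21 over all targets and 0.15 over those with 100 or more on at least 3 arrays.

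Tfe3 encodes a MiT/TFE factor that switches on lysosomal and autophagy genes. Its intensity was 6345, 7880 and 6773 on knockdown replicates 1 to 3 and 4649, 5848 and 5835 on control replicates 1 to 3. The knockdown arrays were all above the control arrays, with a gap of 0.12 on the log2 scale between the closest of them. The mean log2 intensity was 12.77 ± 0.16 (SD, n = 3) in knockdown and 12.40 ± 0.19 (SD, n = 3) in control cells, a difference of 0.36 (SE 0.15), or 1.29-fold. Control replicate 1 was the lowest array, and the difference was 0.25 without it and 0.42 without control replicate 3.

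Lipa encodes lysosomal acid lipase, which splits the cholesteryl esters and triglycerides of lipoproteins taken up by the cell. Its intensity was 5465, 5639 and 5102 on knockdown replicates 1 to 3 and 5068, 5731 and 5524 on control replicates 1 to 3. The groups overlapped over nearly their whole range. The mean log2 intensity was 12.40 ± 0.07 (SD, n = 3) in knockdown and 12.41 ± 0.09 (SD, n = 3) in control cells, a difference of -0.01 (SE 0.11), smaller in size than that of all but 2.4% of targets. Like Steap3 it varied little within the groups, with a pooled SD of 0.08, and the difference was 0.00 without control replicate 3.

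**Figure D1:**
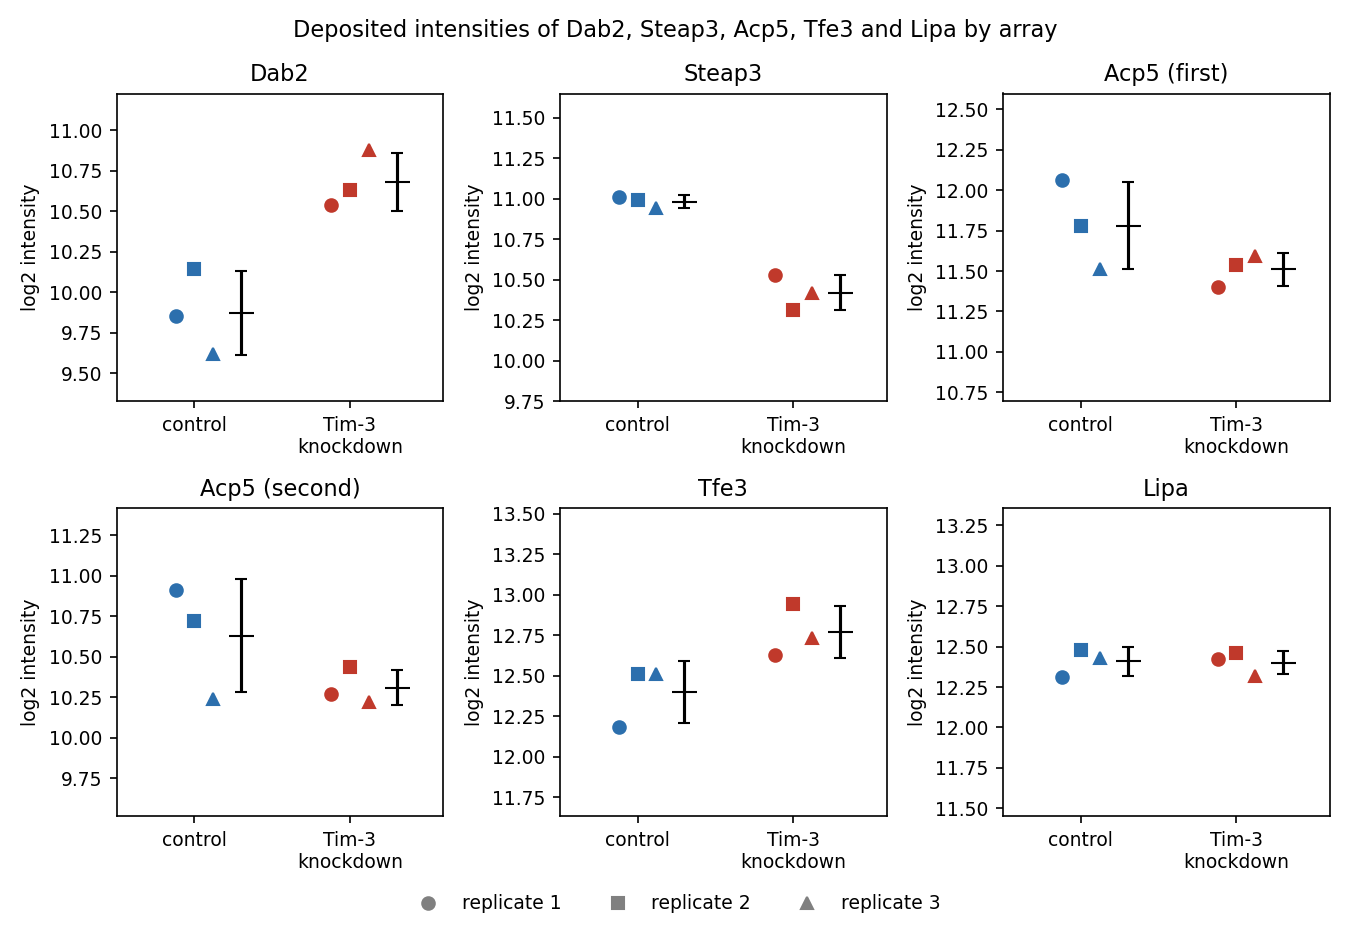
Log2 intensity (y axis, each panel spanning the same range) of the 6 targets on each control (blue) and Tim-3 knockdown (red) array, with the group mean and SD (n = 3) as a black bar. The groups are apart for Dab2, Steap3 and Tfe3 and overlap for both Acp5 targets and Lipa.

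Set side by side, Dab2 and Tfe3 were higher in the knockdown, Steap3 and both Acp5 targets lower, and Lipa level. The median absolute difference of the 6 targets was 0.34, against 0.22 over all 44170 targets and 0.19 over those with 100 or more on at least 3 arrays. Groups did not overlap for 3 of the 6 (Dab2, Steap3 and Tfe3), while 25.1% of all targets did not overlap. Without control replicate 3 that was so for 5 of the 6, all but Lipa, and for 34.5% of all targets. Because the genes were picked on this comparison, nothing is read from these counts.

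None of the 6 targets reached the 2-fold difference that the series' design text sets as its screen, which 2.84% of all targets did. Dab2 came nearest. In limma's test over all 44170 targets, 0 of the 6 had a Benjamini-Hochberg adjusted p under 0.05, as 1.21% of all targets did. Among the 27526 targets of the authors' filtered series table, Dab2 and Steap3 were called, 2 of the 6, where 6.57% of targets were called. The background of 536 calls over all targets fell whichever array was left out. It was 1, 3 and 37 without knockdown replicate 1, 2 and 3, and 57, 10 and 226 without control replicate 1, 2 and 3. Targets with an unadjusted p under 0.05 in limma's test went from 7494 to between 6054 and 6779. Leaving out an array also lowers the precision of the test, and its part in the fall was not tested. The counts of calls among the 6 targets are a description too, since the comparison chose the genes.

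**Figure D2:**
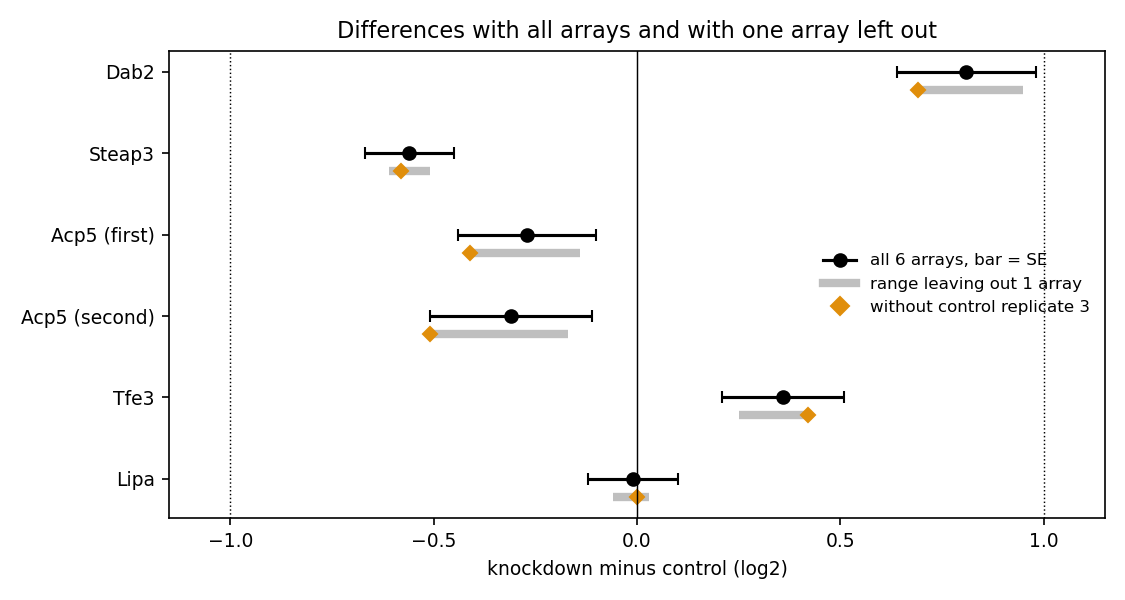
Knockdown minus control difference in mean log2 intensity (x axis) for each target, with the SE of the fit across all targets (black, n = 3 arrays per group), the range of values with 1 array left out (grey) and the value without control replicate 3 (orange); dotted lines mark a 2-fold difference. Dab2 (0.81) and Steap3 (-0.56) lie farthest from 0, and the grey ranges of the Acp5 targets (-0.41 to -0.14 and -0.51 to -0.17) are wide for their size.

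The genes most like each target over the 6 arrays were sought among 550 targets with a symbol and a mean level at or above the median of all targets. The values of r, over 6 arrays that include the group difference itself, are a description. Dab2 was most like Zfp553, a zinc finger gene (r = 0.995), Trmt61a, a tRNA methyltransferase subunit (r = 0.980), and Itsn1 (r = 0.976). Itsn1, or intersectin, is itself an endocytic scaffold that works at clathrin-coated pits. On its matched target NM_001110275, intensities were 651, 785 and 821 on knockdown replicates 1 to 3 and 512, 604 and 472 on control replicates 1 to 3. As for Dab2, the knockdown arrays were all above the control arrays and control replicate 3 was lowest. Itsn1 was picked for its likeness to Dab2 on these arrays, so the shared order supports nothing. A dim further target of Itsn1 differed by -0.09.

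Steap3 was most like Bdp1, a subunit of the RNA polymerase III factor TFIIIB (r = 0.996), Lrrfip1, a nucleic acid binding protein (r = 0.993), and Kif21a, a kinesin motor (r = 0.990). All 3 shared the tight control arrays of Steap3. Both Acp5 targets were most like Mcc (r = 0.926 and 0.927), whose log2 intensity of 7.29 on control replicate 3 was below those of control replicates 1 (8.71) and 2 (8.29). The next most like the first Acp5 target were Caprin1 (r = 0.918) and Cth (r = 0.907), and the next most like the second were Rtl6 (r = 0.915) and Hagh (r = 0.883).

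Tfe3 was most like the pseudogene Tyms-ps (r = 0.967), Hrct1 (r = 0.954) and Hnrnpab, an RNA-binding protein (r = 0.949). Lipa was most like Dock5, an exchange factor for the small GTPase Rac (r = 0.990), Brwd1 (r = 0.945) and Cul4b, a ubiquitin ligase scaffold (r = 0.922). Among the 5 genes themselves, the profile of Dab2 had an r of -0.89 with Steap3 and 0.73 with Tfe3, and Steap3 had -0.87 with Tfe3. Lipa had r between -0.42 and 0.42 with the others.

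**Figure D3:**
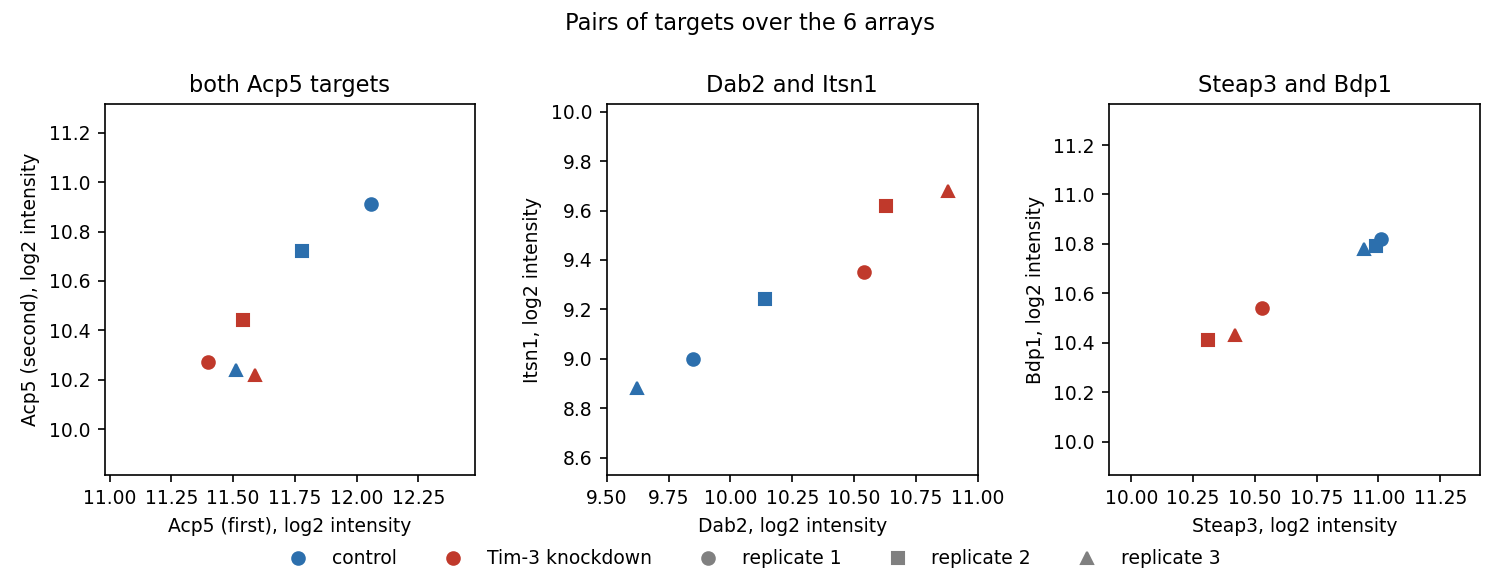
Log2 intensity of 1 target against another on the 6 arrays (control blue, Tim-3 knockdown red, symbol shape for the replicate number), for both Acp5 targets, for Dab2 and Itsn1, and for Steap3 and Bdp1. Control replicate 3 (blue triangle) lies among the knockdown arrays for Acp5, at the low end for Dab2 and Itsn1, and with the other controls for Steap3 and Bdp1.

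The surrounding pathways were read through 13 gene lists on endocytosis, endosomes, lysosomes, autophagy, iron, heme, osteoclasts, lipids and phagocytosis. Of their 582 genes, 19 besides the 5 described above were measured under a symbol, by 20 targets, of which 17 reached an intensity of 100 on 3 or more arrays. Of these 20, 0 were higher and 0 lower in limma's test over all targets (adjusted p under 0.05), against 0.505% and 0.709% of all targets. At an unadjusted p under 0.05 there were 3, and 7494 (17.0%) of all targets. Groups did not overlap for 2 of the 20 higher in the knockdown (Ehd2 and 1 Itsn1 target) and 1 lower (Vamp7), while 25.1% of all targets did not overlap. The authors' filtered table gave 0 calls among them as well. The median absolute difference of these 20 was 0.16. It was 0.22 over all targets and 0.19 over those with 100 or more on at least 3 arrays. With so few members measured the lists describe these genes and not the pathways.

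Among the endocytic adaptors and scaffolds, 4 genes with 5 targets were measured and 0 passed. Ehd2, an ATPase found at caveolae, had the lowest p of this list: its log2 intensity was 7.54 ± 0.11 (SD, n = 3) on the knockdown and 7.02 ± 0.18 (SD, n = 3) on the control arrays, which differ by 0.52 (SE 0.14, limma adjusted p = 0.15). Itsn1 differed by 0.51 (SE 0.15, limma adjusted p = 0.18) on the target described above. Its groups did not overlap, nor did those of Ehd2, as for 25.1% of all targets. Without control replicate 3 these differences were 0.46 for Ehd2 and 0.43 for Itsn1. A second Itsn1 target, NM_001110276, was dim, with 100 or more on 2 arrays, and differed by -0.09 (SE 0.43), with -0.14 without control replicate 3. Reps1, a partner of the Eps15 family, and Ston1, a stonin, differed by 0.04 and 0.07, and by -0.04 and -0.02 without control replicate 3.

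The 1 endocytic receptor measured was Lrp8, an LDL receptor family member, with a difference of 0.01 (SE 0.20, limma adjusted p = 0.99), or 0.21 without control replicate 3, where it was highest. Of 3 endosome genes, Vamp7, the SNARE protein of fusion with late endosomes and lysosomes, had the lowest p. Its log2 intensity was 8.36 ± 0.07 (SD, n = 3) in knockdown and 8.86 ± 0.27 (SD, n = 3) in control cells, without overlap, which is a difference of -0.49 (SE 0.16, limma adjusted p = 0.21), or -0.38 without control replicate 3. Vps37b and Chmp6, of the ESCRT complexes that sort cargo at endosomes, differed by 0.09 and 0.12, and by 0.03 and 0.15 without that array.

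The other lysosomal enzyme was Rnaset2a, a ribonuclease, with 14.66 ± 0.12 (SD, n = 3) against 14.49 ± 0.10 (SD, n = 3) and a difference of 0.17 (SE 0.12, limma adjusted p = 0.53), or 0.22 without control replicate 3. It has a near-identical copy, Rnaset2b, so its probes may read both. Acp1, a phosphatase listed with Acp5, differed by 0.07 (SE 0.18, limma adjusted p = 0.88), or 0.12 without control replicate 3. For the regulators of Tfe3, the GATOR complex subunit Wdr24, which acts upstream of mTORC1, differed by 0.17 (SE 0.11, limma adjusted p = 0.49), or 0.22 without that array. The autophagy genes Atg2a and Atg16l2 differed by 0.15 and 0.02, with a limma adjusted p of 0.62 for Atg2a, and by 0.26 and -0.04 without control replicate 3. No subunit of the vacuolar proton pump was among the targets with a symbol.

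Among iron genes, Pcbp2, an RNA-binding protein that also carries iron to ferritin, differed by 0.00 (SE 0.13), and by 0.01 without control replicate 3. Steap2, a relative of Steap3, was at intensities of 17 to 38, near the random-sequence probes on every array, and its difference of 0.19 (SE 0.29, limma adjusted p = 0.78), or 0.12 without control replicate 3, has no meaning as a level. Alas2, the erythroid enzyme of heme synthesis, differed by 0.26 (SE 0.40, limma adjusted p = 0.78). Single arrays moved this value: leaving out replicate 1 of either group gave 0.60, leaving out control replicate 2 gave 0.02, and 0.16 remained with control replicate 3 left out.

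Siglec15, an osteoclast receptor and the only other osteoclast gene measured besides Acp5, was at intensities of 26 to 38, near background on all 6 arrays, and differed by 0.19 (SE 0.15, limma adjusted p = 0.57), or 0.26 without control replicate 3. Lyn, a kinase of phagocytic receptors, differed by 0.31 (SE 0.24, limma adjusted p = 0.56) and by 0.07 without control replicate 3. Apoc1, listed with Lipa among the lipid genes, differed by 1.67 (SE 1.65, limma adjusted p = 0.64) through its intensity of 60 on control replicate 3, and by -0.39 without that array.

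**Figure D4:**
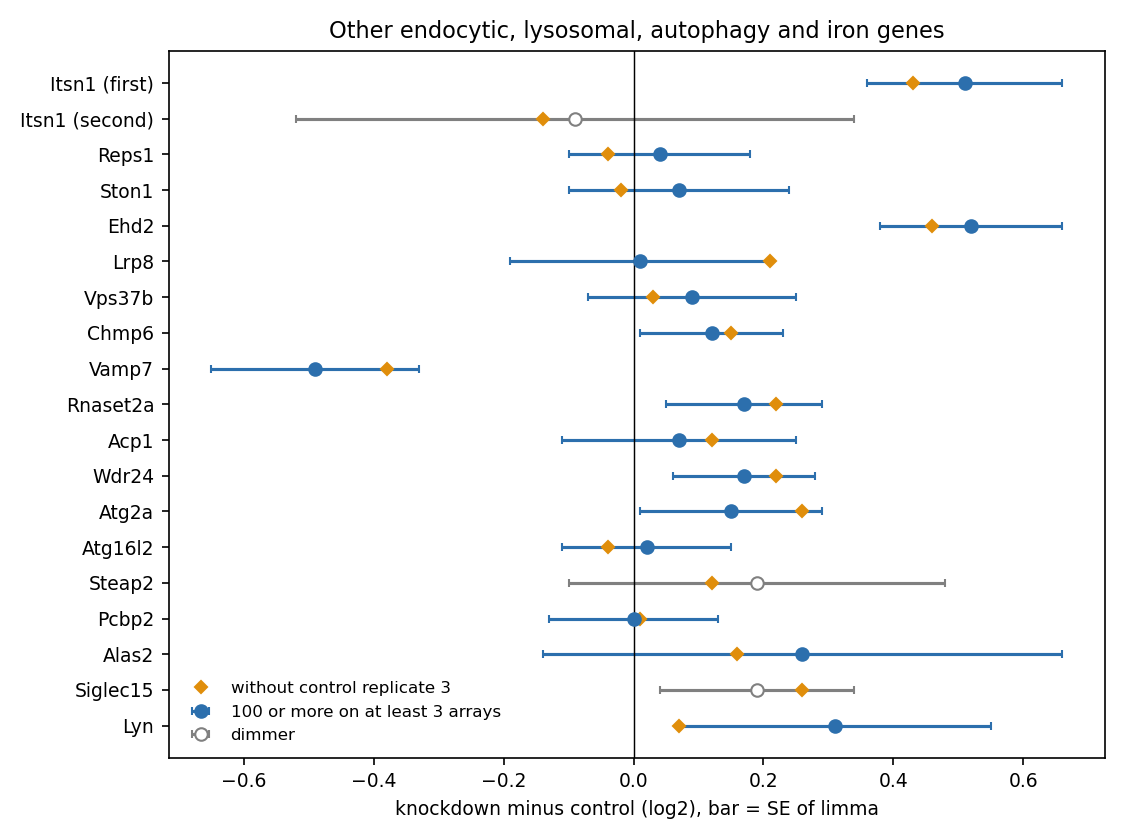
Knockdown minus control difference in log2 intensity (x axis) with the SE of limma for 19 of the 20 other pathway targets (Apoc1, at 1.67, is left out for scale), n = 3 arrays per group; open grey symbols are targets that reached an intensity of 100 on fewer than 3 arrays, and orange diamonds give the value without control replicate 3. Ehd2 and the first Itsn1 target, its brighter one, lie at 0.52 and 0.51 and Vamp7 at -0.49, and 0 of the targets passed the test.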

How the data were processed

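RNA of 6 RAW264.7 cultures was read on 1-colour arrays. The authors deposited intensity values on a linear scale, and the submitters' processing notes name RMA without a setting. RMA usually normalizes between arrays by quantiles, which would remove a shift shared by all genes; no source used here states this step. The series table held the 27526 targets that reached 100 on 3 or more arrays, at the same values (largest relative difference 3.8e-04). The probes' genome build is not stated there either.

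Accessions were matched without versions to a RefSeq gene table (GRCm38.p6), used for names only: 1267 of 44170 targets matched 1229 symbols. Promoters came from RefSeq on that build. Log2 intensities were compared by the linear models of limma (version 3.58.1, R 4.3.3, default eBayes, no block, no filter, two-sided), adjusted by Benjamini-Hochberg over all 44170 targets; the script was tested on simulated data. Figures used matplotlib 3.10.9. The arrays' number, 3 per group, limits the precision. The p-values set a difference against the spread between cultures. The number of clones is not given, so they do not speak for other clones.

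The 5 genes and all lists were chosen with earlier results of these data known, and 1 gene of the pathway lists was left out and is not reported here. Named genes were the 5 genes, per list up to 3 called targets in each direction or else the one of lowest p, the 3 most alike genes per target, and cell type markers; other list members were named after their values were seen. Over all targets, the deviations of same-numbered arrays had correlations of -0.03, -0.01 and 0.00. The block stayed an alternative, and whether same-numbered arrays shared a batch was not tested.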

Additional observations from a re-analysis of the deposited data

How the results depend on the processing

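The differences of the 6 targets moved by less than their within-group SD under quantile normalization, median centring and log2(value + 50). Both filters on dim targets, the series table and the replicate block leave the group means as they are, so the differences could not move there. Leaving out 1 array gave 0.69 to 0.95 for Dab2, -0.61 to -0.51 for Steap3, -0.41 to -0.14 and -0.51 to -0.17 for the Acp5 targets, 0.25 to 0.43 for Tfe3 and -0.06 to 0.03 for Lipa. Dab2 and Steap3 were also called by limma with log2(value + 50) and with trend and robust fitting, and Steap3 without the dimmest 25% of targets, which describes genes chosen on this comparison and supports nothing. Over all targets, 223 higher and 313 lower calls became 585 and 833 with log2(value + 50), 739 and 1069 in the series table and with its filter alone, 485 and 696 without the dimmest 25%, and 1094 and 1403 under a robust variance trend. With 1 array left out there were 0 to 117 and 1 to 109. Blocking on the replicate number left 0 and 0 calls by limma (6542 targets had an unadjusted p under 0.05). Correlations between the deviations of same-numbered arrays over all targets were -0.03, -0.01 and 0.00. Whether same-numbered arrays shared a batch was not tested. Quantile normalization, median centring, array weights and the brightest target of a gene kept both counts within 1.5 times. The count of 0 higher pathway targets became 1 with trend and robust fitting (Itsn1, limma adjusted p = 0.048); this was the 1 of 311 results for single pathway targets that passed the test. The sign turned in 20 of the 311, on 9 targets, 18 of them with 1 array left out, and 0 of these 20 were called before or after. For these shifts the cause was not tested. By construction, filters lower the number of targets tested, and left-out arrays the number of arrays. Over all targets, the calls rose with the filters and fell with an array left out. Signal over background limited Steap2, Siglec15 and the second Itsn1 target.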
